A study of Macaca mulatta with 12 samples.

Results

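The genes described here encode the subunits of voltage-gated sodium and calcium channels. They were taken as every probe set whose only gene symbol starts with CACNA, CACNB or CACNG, or is SCN followed by a digit. This gave 22 of 8226 singly named genes and 31 of the 12625 probe sets of the array, and 20 of the 31 probe sets, for 17 genes, were bright enough to be tested. Transcript intensities were measured in the dorsal raphe nucleus, the serotonin-producing nucleus of the midbrain, of 12 female rhesus macaques, with 1 array for each monkey and 3 monkeys in each of 4 groups. Silastic implants had been under the skin for 1 month and the groups were estrogen, progesterone, estrogen and progesterone together, and placebo. The placebo labels carry the code OVX, which the labels do not spell out, and the hormone labels do not carry it. The ovarian state of the hormone groups, the doses and the ages are not given in the labels. The titles of the progesterone arrays carry the codes of the combined group, and their group was therefore taken from the source names. The comparisons address the response of transcript levels to each hormone and to the pair.

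Voltage-gated sodium channels open on depolarization and carry the rising phase of the action potential. Each is built around a pore-forming alpha subunit, and smaller beta subunits adjust its gating and its place in the membrane. Voltage-gated calcium channels turn the same depolarization into calcium entry, which drives transmitter release, dendritic signalling and pacemaking. Their alpha1 subunit forms the pore, while the intracellular beta and the extracellular alpha2delta subunits set how much of it reaches the surface. Serotonin neurons of the raphe fire slowly and regularly, and calcium currents are among those known to shape that firing.

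Macaque RNA was hybridized to human probes, and mismatches can lower a signal, so signals are not read as transcript levels between probe sets, and brightest and dimmest refer to the signal on the array alone. Array medians lay between 74.2 and 87.1 intensity units. A high signal of the 28S ribosomal RNA control set off estrogen array 1 (841) and the first array with both hormones (1354), against at most 179 elsewhere, and these 2 arrays also had the highest ratios of 3' to 5' GAPDH signal (2.45 and 2.05, against at most 1.46). Several results that rest on these arrays are given with and without them, as stated beside each. The summed intensity of 12 neuron markers was 36152 to 48024 with estrogen, 39161 to 44861 with progesterone, 37952 to 41657 with both hormones and 36555 to 42182 with placebo, so the neuronal signal overlapped between all groups. The sum of 8 serotonin neuron markers was 1287 to 1406 with estrogen, 850.4 to 1151 with progesterone, 1130 to 1344 with both hormones and 1212 to 1421 with placebo. The progesterone arrays thus lay below every placebo array for that sum. SLC6A4, the brightest of these markers, weighs most in it and read 267, 307 and 272 with progesterone, against 476, 432 and 396 with placebo. FEV read 289, 104 and 107, against 172, 168 and 111, so progesterone array 1 lay above every placebo array. Of 9 serotonin neuron probe sets tested, 1 read higher and 8 lower with progesterone than with placebo, where 50.4% of all tested probe sets read higher. Of 10 listed serotonin neuron markers 8 were on the array, and TPH2 and HTR1A were not. SLC6A4 and FEV were among those bright enough to be tested. TPH1 read 0.53 to 3.60 over all arrays, which says nothing of TPH2. In bulk tissue, fewer cells of a type and less RNA per cell cannot be told apart.

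No channel probe set passed the adjusted threshold of 0.05 in any comparison by limma, a linear model fitted over all 7535 tested probe sets. Log2 changes were computed on the scale log2(intensity + 8.26) after quantile normalization. For estrogen against placebo 0 of 20 channel probe sets were called, and 0% of all tested probe sets. For progesterone against placebo 0 of 20 were called, against 0.0398% of all. For both hormones against placebo 0 of 20 were called, against 0.0133% of all. Adding progesterone to estrogen called 0 of 20 (0% of all), adding estrogen to progesterone called 0 of 20 (0.0133% of all), the interaction of the hormones called 0 of 20 (0% of all), and the test for any difference among the 4 groups called 0 of 20 (0.0531% of all). At an unadjusted p under 0.05 there was 1 channel probe set of 20 with progesterone against placebo (5% of them, and 8.24% of all), 1 with both hormones against progesterone (5%, and 7.71% of all), and 0 in the other comparisons, where the share of all probe sets was 3.16% with estrogen against placebo, 3.38% with both hormones against placebo, 2.87% with both hormones against estrogen, 4.99% for the interaction and 5.79% for the 4-group test. By these counts the channel probe sets passed no more often than the array as a whole.

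The median log2 change of the 20 channel probe sets was −0.063 with estrogen, −0.054 with progesterone, and 0.0016 for the combined implants against placebo, beside −0.0047, 0.0022 and −0.0031 over all tested probe sets. Of the 20, 9 read higher and 11 lower with estrogen, 8 higher and 12 lower with progesterone, and 10 each way with both hormones, where 49.2%, 50.4% and 49.4% of all tested probe sets read higher in the same order. The median size of the change, whatever its sign, was 0.31 for the channel probe sets with progesterone, beside 0.19 for all, whereas with estrogen it was 0.15 for both. The channel probe sets also varied more between animals of a group, with a median within-group SD of 0.39 on the log2 scale against 0.30 over all tested probe sets. The data still limit many of the changes. The 95% interval of the log2 change lay within 2-fold in either direction for 14 of 20 probe sets with estrogen, 14 with progesterone, and 13 for the combined implants.

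**Figure D1:**
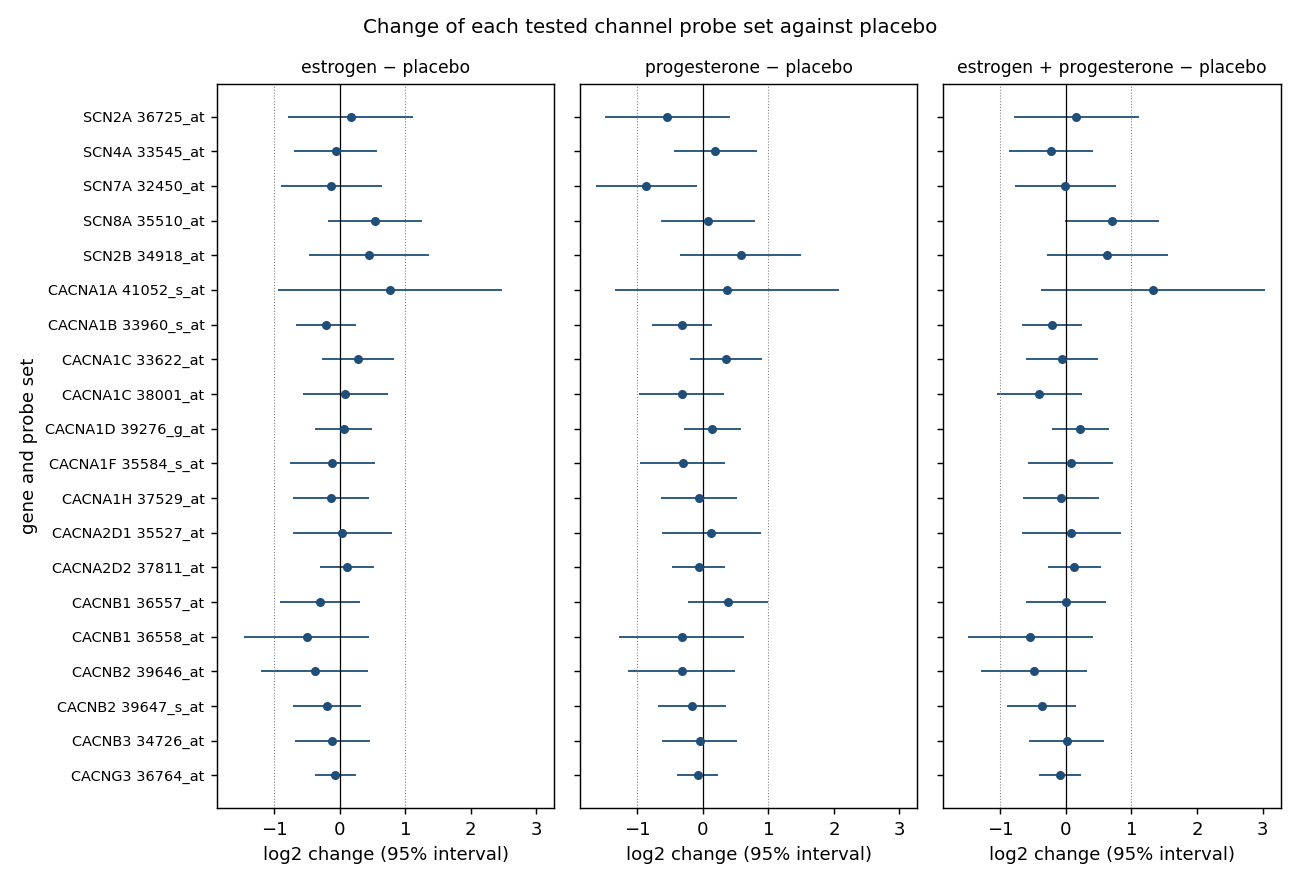
Log2 change of each of the 20 tested channel probe sets (rows, ordered by role) with estrogen, progesterone and both hormones against placebo, in 3 panels. Points are limma estimates, bars are 95% intervals, and dotted lines mark a change of 2-fold; the interval of SCN7A with progesterone (−1.63 to −0.089) is the only one drawn that does not cross 0, and no change passed the adjusted threshold.

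Among the sodium channel alpha subunits, 4 of 5 genes were tested. SCN2A, SCN9A and SCN7A lie in 1 cluster of sodium channel genes in the macaque RefSeq assembly T2T-MMU8v2.0. SCN7A encodes an atypical channel known in rodents as a sodium-level sensor of glia. It read 177, 57.5 and 75.1 with progesterone, against 197, 171 and 157 with placebo. Progesterone arrays 2 and 3 lay below every placebo array, while progesterone array 1 lay inside the placebo range. The log2 change was −0.86 ± 0.35 (SE, n = 3 arrays a group, 95% interval −1.63 to −0.089, limma adjusted p = 0.552), and it was −1.29 without progesterone array 1 and −0.55 without progesterone array 2. SCN7A read 183, 261 and 113 with both hormones, so all of those arrays lay above progesterone arrays 2 and 3, and array 3 lay below progesterone array 1. The difference of both hormones against progesterone was 0.85 ± 0.35 (limma adjusted p = 0.568), and it was 1.29 without progesterone array 1 and 0.55 without progesterone array 2. With estrogen alone SCN7A read 179, 156 and 148, a change of −0.12 from placebo, and the interaction was 0.98 ± 0.50 (limma adjusted p = 0.966). The summed intensity of 9 astrocyte marker genes was 6975 to 7182 with progesterone and 4335 to 7742 with placebo, and these groups overlapped. The lowest placebo sum came from array 1, where the glutamate transporter SLC1A2 read 293, against 3990 and 4244 on the other placebo arrays. Without SLC1A2, left out after its values were seen, the sum of the other 8 genes was 2875 to 3052 with progesterone and 3301 to 4042 with placebo. All progesterone arrays lay below all placebo arrays for that sum. GFAP, the brightest of the 8 genes, weighs most in it and read 955, 985 and 1125 with progesterone, against 1356, 1425 and 1294 with placebo. Of 10 astrocyte probe sets tested, 6 read higher and 4 lower with progesterone than with placebo, and 0 were called by limma. At an unadjusted p under 0.05 there were 3, beside 8.24% of all tested probe sets. They were those of SOX9, GFAP and GLUL, each with all progesterone arrays below all placebo arrays. GJA1 on 2018_at went the other way, with all progesterone arrays above all placebo arrays (0.83, limma adjusted p = 0.654). Its probe set in the sum, 32531_at, read lower (−0.30) with overlap. SOX9, a transcription factor of astrocytes, had the lowest p (−0.80 ± 0.16, SE, limma adjusted p = 0.177). The serotonin neuron sum was also lower with progesterone, as given above. The part of these markers in the SCN7A values was not tested.

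SCN8A encodes the alpha subunit that predominates at mature axon initial segments and nodes of Ranvier. It read 194, 169 and 158 with both hormones, against 78.4, 93.8 and 139 with placebo. All arrays with both hormones lay above all placebo arrays. The log2 change was 0.71 ± 0.33 (SE, 95% interval −0.005 to 1.43, limma adjusted p = 0.999). With estrogen alone SCN8A read 149.9, 195 and 123, and the lowest of these lay inside the placebo range (0.54 ± 0.33, limma adjusted p = 0.9999). With progesterone alone it read 205, 70.2 and 83.7, so that array 1 was the highest of all 12 arrays and array 2 the lowest. The difference of both hormones against progesterone was 0.62 (limma adjusted p = 0.672), and it was 1.06 without progesterone array 1 and 0.35 without progesterone array 2.

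SCN2A encodes an alpha subunit of central axons and was the dimmest tested channel probe set. It read 73.7, 77.4 and 50.8 with estrogen, 88.5, 13.3 and 38.2 with progesterone, and 55.7, 83.9 and 65.5 with both hormones, against 39.7, 57.3 and 79.3 with placebo. Every hormone group overlapped placebo, and the progesterone group held both the highest and the lowest of the 12 values. Its changes against placebo were 0.17 with estrogen, −0.54 with progesterone, and 0.16 for the combined implants (SE 0.44 each). Without progesterone array 1 the progesterone change was −1.09 (limma adjusted p = 0.448).

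SCN4A encodes the alpha subunit of skeletal muscle and was the brightest sodium channel alpha probe set. It read 431, 375 and 428 with estrogen, 582, 340.4 and 586 with progesterone, and 439, 369.7 and 297 with both hormones, against 275, 628 and 448 with placebo. The placebo arrays spanned every other value, and the changes were −0.06, 0.19 and −0.23 (SE 0.29) in the order estrogen, progesterone and both hormones. Of 9 listed skeletal muscle markers 8 were on the array and 3 passed the filter on brightness. The summed intensity of all 8 was 254 to 490.0 with estrogen, 248 to 391 with progesterone, 295 to 482 with both hormones and 338 to 345 with placebo. The part of muscle RNA in the SCN4A signal was not tested.

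SCN2B encodes a beta subunit that is linked to the alpha subunit by a disulfide bond, and it was the single sodium beta subunit on the array. It read 400.5, 318 and 178 with estrogen, 452, 254 and 267 with progesterone, and 479.8, 279.9 and 266 with both hormones, against 100.002, 251 and 350.1 with placebo. Placebo array 1 was the lowest of all 12 arrays, and all groups overlapped placebo. The changes were 0.45 with estrogen, 0.58 with progesterone, and 0.63 for the combined implants (SE 0.42 each). Without placebo array 1 they were −0.02, 0.11 and 0.17 in the same order, so the size of all 3 rested on that animal.

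**Figure D2:**
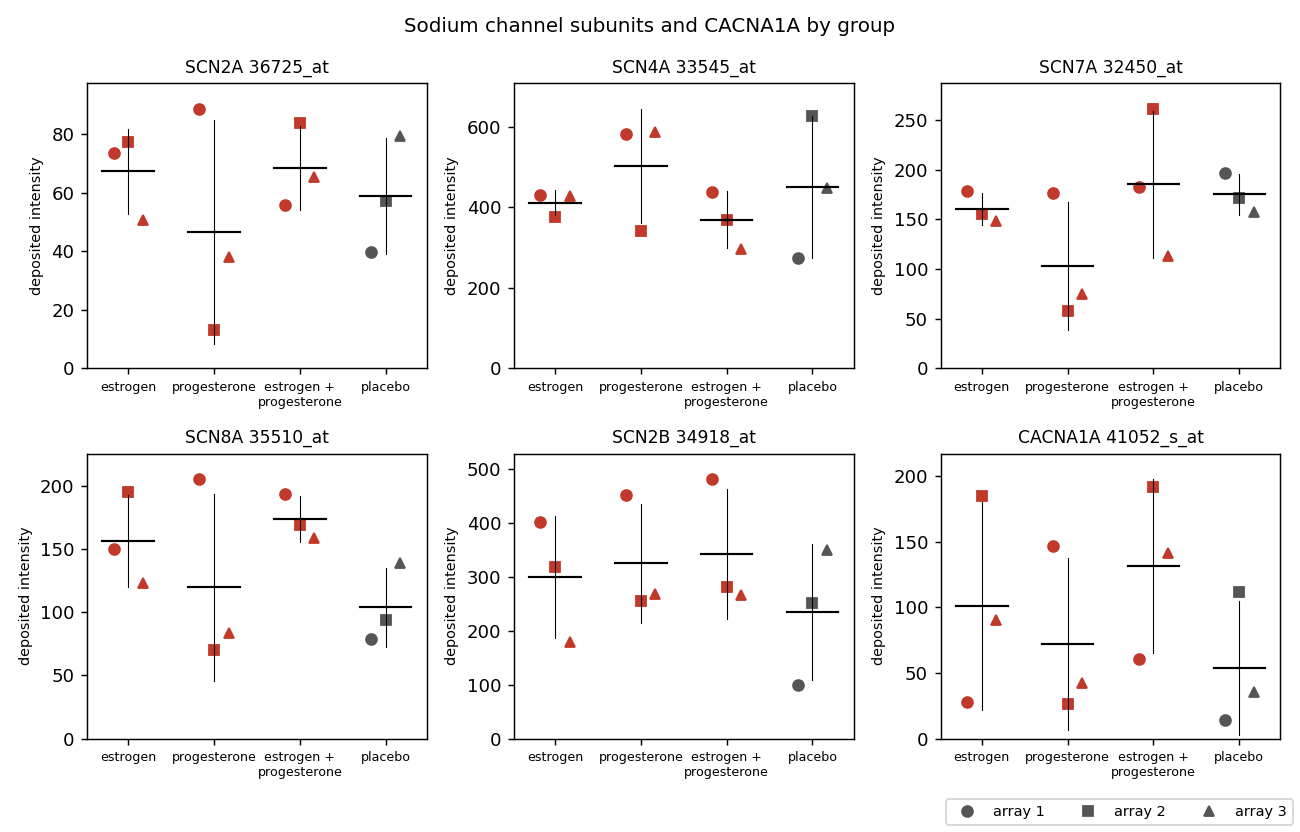
Deposited intensity (linear, arbitrary units) of 5 sodium channel probe sets and of CACNA1A on each array, with a panel for each and hormone groups in red left of placebo in grey. Circles, squares and triangles are arrays 1, 2 and 3 of a group, bars are means and thin lines are ±SD; the circle of progesterone stands above its square for every gene shown, as with SCN7A at 177 against 57.5.

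Of the high-voltage activated calcium channels, 7 alpha1 genes were on the array with 13 probe sets, of which 6 were tested. CACNA1A encodes the P/Q-type pore that triggers transmitter release at many central synapses. It read 60.9, 192 and 142 with both hormones, against 14.3, 112 and 35.4 with placebo. The groups overlapped, and values within a group differed by several fold. The log2 change was 1.33 ± 0.78 (SE, 95% interval −0.38 to 3.04, limma adjusted p = 0.999), and it was 0.77 without placebo array 1. CACNA1A read 27.8, 185 and 90.1 with estrogen (0.77) and 147, 26.3 and 42.2 with progesterone (0.37). The progesterone change was −0.27 without progesterone array 1, and without placebo array 1 the changes were 0.21 with estrogen and −0.19 with progesterone. The summed intensity of 5 cerebellar markers was 1459 to 1879 with estrogen, 1141 to 1338 with progesterone, 1242 to 1799 with both hormones and 1307 to 1418 with placebo. All estrogen arrays thus lay above all placebo arrays. The highest sums were those of estrogen array 2 and estrogen plus progesterone array 2, where CACNA1A was also highest. The part of cerebellar RNA in the CACNA1A values was not tested.

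CACNA1B encodes the N-type pore, another channel of presynaptic terminals. It read 114, 122 and 117 with progesterone, against 126, 208 and 126 with placebo. Before quantile normalization all progesterone arrays lay below all placebo arrays, and after it they overlapped. The change was −0.32 ± 0.21 (SE, limma adjusted p = 0.739), and it was −0.10 without placebo array 2. With estrogen CACNA1B read 168, 120.3 and 105 (−0.21) and with both hormones 146, 118 and 128 (−0.21), and both groups overlapped placebo.

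CACNA1C and CACNA1D encode the L-type pores of neurons, which couple depolarization to gene transcription and take part in pacemaking. CACNA1C had 2 tested probe sets, and with progesterone they read in opposite directions. On 33622_at it read 133, 150.3 and 171 with estrogen, 156, 139 and 176 with progesterone, and 96.7, 165 and 105 with both hormones, against 80.7, 152 and 139 with placebo. All groups overlapped, and the lowest of the 12 values was that of placebo array 1. The change was 0.28 with estrogen and 0.36 with progesterone (SE 0.25, limma adjusted p = 0.9999 and 0.765), and without placebo array 1 these were 0.05 and 0.13. Both hormones against estrogen gave −0.34, both hormones against progesterone −0.42 (limma adjusted p = 0.717), and the interaction −0.70 ± 0.35 (limma adjusted p = 0.966), or −0.46 without placebo array 1.

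On 38001_at CACNA1C read 58.5, 85.2 and 108 with estrogen, 60.6, 49.0 and 66.8 with progesterone, and 36.8, 76.1 and 65.1 with both hormones, against 74.1, 77.2 and 70.3 with placebo. All progesterone arrays lay below all placebo arrays (−0.32 ± 0.30), where 33622_at had read higher with progesterone. Both hormones against estrogen gave −0.49 ± 0.30 (SE, limma adjusted p = 0.999995), and the value was −0.17 without estrogen plus progesterone array 1. A dimmer CACNA1C probe set below the filter, 33623_g_at, read 61.7, 79.6 and 39.4 with both hormones and 19.8, 19.3 and 27.3 with progesterone alone, without overlap. Fitted with no filter, that difference was 1.12 ± 0.29 (SE, limma adjusted p = 0.346), opposite in sign to the 33622_at value for the same comparison. It is named here after its values were seen.

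CACNA1D read 139, 169.5 and 148 with estrogen, 150.1, 166 and 159 with progesterone, and 129, 186 and 207 with both hormones, against 118, 154 and 156 with placebo. These ranges overlapped, and the changes were 0.06, 0.15 and 0.22 in that order. CACNA1F, the L-type pore of retinal photoreceptors, was the third L-type gene tested. It read 121, 174 and 168 with estrogen, 165, 113 and 117 with progesterone, and 144, 181 and 205 with both hormones, against 102, 261 and 157 with placebo. Placebo spanned all of them, and the interaction of 0.50 (limma adjusted p = 0.970) ranged to 0.18 without placebo array 2 and 0.77 without placebo array 1.

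CACNA1H, a T-type pore that opens near resting potential, was the single T-type probe set tested. It read 132, 120.2 and 91.4 with estrogen, 129.6, 118 and 109 with progesterone, and 176, 142 and 66.4 with both hormones, against 127, 126 and 118 with placebo. The placebo arrays lay close together inside the range of every hormone group, and the changes were −0.13, −0.05 and −0.07.

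Both alpha2delta genes were tested. CACNA2D2 was the brightest channel probe set, with 1408, 1573 and 1437 with estrogen, 1718, 1145 and 1216 with progesterone, and 1362, 1489.8 and 1602 with both hormones, against 1279, 1517 and 1353 with placebo. All groups overlapped, with changes of 0.11, −0.06 and 0.13 (SE 0.19). CACNA2D1, a target of gabapentin as is CACNA2D2, averaged 108 ± 59.1 with estrogen, 111 ± 45.1 with progesterone, and 106 ± 18.4 for the combined implants, against 97.4 ± 24.5 with placebo (SD, n = 3 each), and its changes lay between 0.04 and 0.13.

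The intracellular beta subunits carry the pore to the membrane and shape its inactivation, and 5 probe sets of 3 genes were tested. With estrogen all 5 read lower than placebo on average, by −0.50 to −0.12, with 0 called by limma. That shared direction rested in part on estrogen array 1, 1 of the 2 arrays with high ribosomal signal. After normalization those 2 arrays were the lowest of the 12 on 36558_at of CACNB1 and on 39646_at and 39647_s_at of CACNB2. Without estrogen array 1 the estrogen change on 36558_at was −0.05. On 39646_at it was above 0 without both arrays, as given below. On 36557_at estrogen array 1 was instead the highest of its group. With progesterone 1 read higher and 4 lower, and with both hormones 2 read higher and 3 lower. CACNB1 on 36557_at, the brightest of them, read 638, 478 and 568 with estrogen, 945, 877 and 893 with progesterone, and 1160.3, 595 and 475 with both hormones, against 674, 704 and 699.9 with placebo. All estrogen arrays lay below and all progesterone arrays above the placebo arrays, while both hormones spanned the whole range through their array 1. The changes were −0.29, 0.38 and 0.01 (SE 0.28), with limma adjusted p = 0.9999 for estrogen and 0.789 for progesterone. Without estrogen array 1 and estrogen plus progesterone array 1, both hormones against progesterone gave −0.77 (limma adjusted p = 0.243), against −0.37 with all arrays.

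The second tested CACNB1 probe set, 36558_at, read 42.0, 103 and 101 with estrogen, 109, 60.2 and 94.0 with progesterone, and 36.9, 107 and 107 with both hormones, against 107, 98.7 and 120.4 with placebo. Its 2 lowest values were those of the arrays with high ribosomal signal. The change with estrogen was −0.50 ± 0.44 (limma adjusted p = 0.9999) and −0.05 without estrogen array 1, and with both hormones it was −0.54, or −0.04 without both arrays. With progesterone it was −0.32, opposite in sign to 36557_at.

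CACNB2 on 39647_s_at read 86.5, 120.4 and 112 with both hormones, against 154, 124 and 128 with placebo. These groups did not overlap, and the change was −0.37 ± 0.24 (SE, limma adjusted p = 0.999), or −0.22 without both arrays of high ribosomal signal. The same probe set read 93.7, 161 and 109.5 with estrogen and 147, 98.2 and 117 with progesterone, and both groups overlapped placebo. On 39646_at CACNB2 read 106, 115 and 112 with progesterone, against 158, 138 and 131 with placebo, also without overlap (−0.32 ± 0.37). It read 53.7, 181 and 136 with estrogen and 88.6, 144 and 83.6 with both hormones, and both groups overlapped placebo. With estrogen its change was −0.38, and it was 0.15 without both of those arrays. After normalization estrogen array 1 and estrogen plus progesterone array 1 were the 2 lowest of the 12 for 3 of the 20 channel probe sets, 36558_at of CACNB1 and both of CACNB2, as they were for 8.28% of all tested probe sets. CACNB3 averaged 225 ± 78.1 with estrogen, 228 ± 53.9 with progesterone, and 241 ± 47.0 for the combined implants, against 234 ± 17.2 with placebo (SD, n = 3 each), and its changes lay between −0.12 and 0.02.

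**Figure D3:**
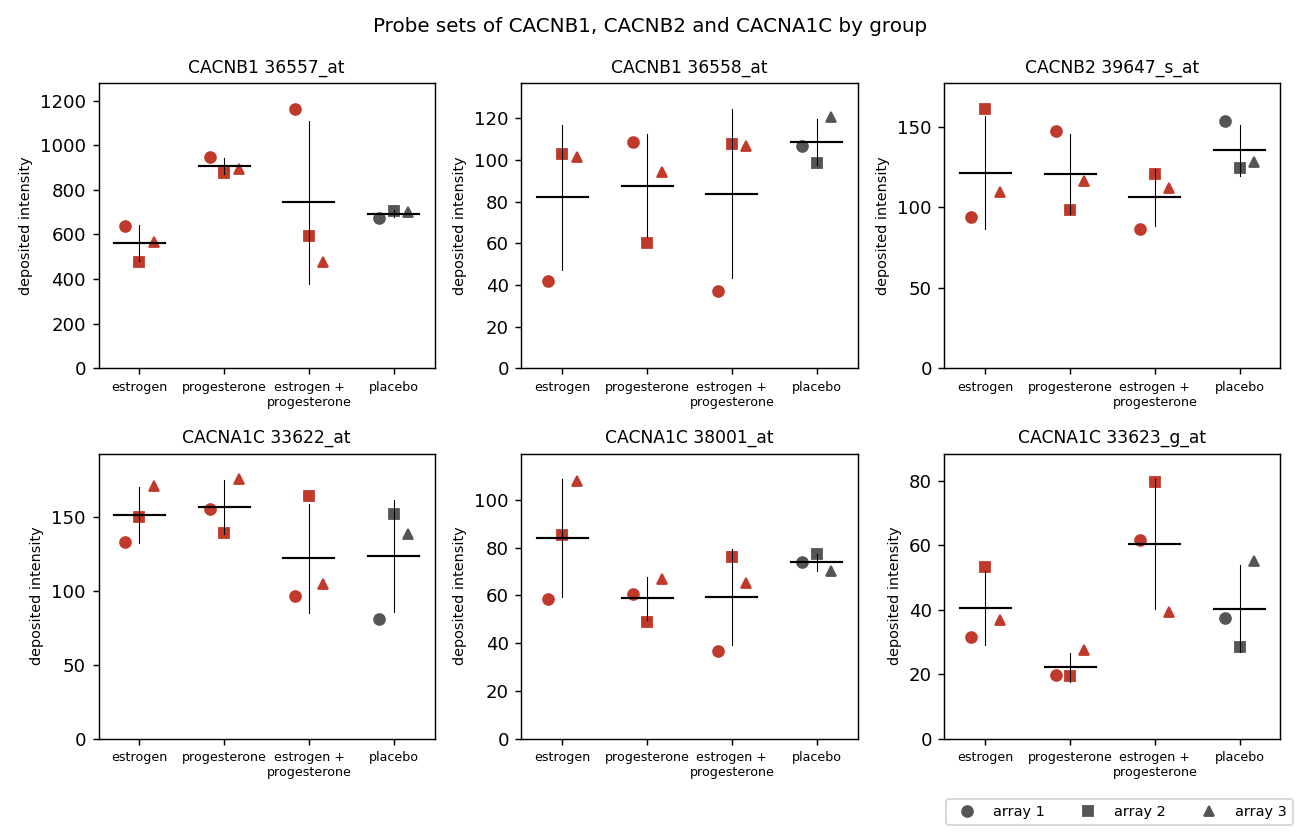
Deposited intensity (linear, arbitrary units) by array for 2 probe sets of CACNB1, 1 of CACNB2 and 3 of CACNA1C, hormone groups in red left of placebo in grey. Circles, squares and triangles are arrays 1, 2 and 3, bars are means and thin lines are ±SD; progesterone lies above placebo on 36557_at of CACNB1 (905 ± 35.5 against 693 ± 16.5) and below it on 38001_at of CACNA1C (58.8 ± 9.03 against 73.9 ± 3.48).

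Of the gamma subunits, CACNG3, which in brain acts as an auxiliary subunit of AMPA receptors, was tested. It read 393, 409 and 441 with estrogen, 378, 407 and 438 with progesterone, and 416, 386 and 421 with both hormones, against 428, 475 and 409.7 with placebo. The groups overlapped, and the changes were −0.07, −0.08 and −0.09 (SE 0.15).

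The other 11 probe sets were too dim to be tested. They were all probe sets of CACNA1E, CACNA1S, SCN9A, CACNA1G and CACNG1, and the dimmer ones of CACNA1C, CACNA1D and CACNB1. CACNG1, the gamma subunit of skeletal muscle, was the brightest of them and stood just under the filter, while SCN2A stood just above it. CACNG1 read 48.9, 45.7 and 41.0 with estrogen, 49.4, 40.7 and 36.7 with progesterone, and 49.4, 47.1 and 42.3 with both hormones, against 19.2, 39.8 and 39.0 with placebo. The estrogen and combined arrays lay above every placebo array, and fitted with no filter the changes of 0.41, 0.31 and 0.41 became 0.14, 0.04 and 0.15 without placebo array 1. CACNA1D on 39275_at lay below the log offset of 8.26 on 11 arrays and CACNA1C on 38002_s_at on 9, so neither gives an order of groups. CACNA1E, the R-type pore, ranged over all arrays between 6.56 and 62.4 on its 3 probe sets. SCN9A, the alpha subunit of nociceptors, ranged between 4.41 and 28.9, and CACNA1S, the L-type pore of skeletal muscle, between 7.45 and 17.8. CACNA1G, a T-type pore of central neurons, read 27.7, 12.3 and 60.7 with estrogen, 14.4, 17.8 and 19.1 with progesterone, and 33.0, 24.0 and 26.8 with both hormones, against 19.4, 15.8 and 12.5 with placebo. All arrays with both hormones lay above the placebo arrays, while the single-hormone groups overlapped them, and the filter on brightness kept these values out of the tests.

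Counted by whether the 3 arrays of 1 group all lay outside those of the other after normalization, 1 of 20 probe sets separated estrogen from placebo (5%, beside 6.13% of all tested probe sets). Progesterone and placebo were separated by 3 of 20 (15%, beside 16.7% of all), and both hormones and placebo by 2 of 20 (10%, beside 8.92% of all). Both hormones were separated from estrogen by 0 of 20 (6.74% of all) and from progesterone by 0 of 20 (15.7% of all). Against placebo the channel shares lay near those of all tested probe sets.

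Progesterone array 1 was the highest of its 3 arrays for 13 of 20 channel probe sets and for 4 of 5 sodium channel probe sets, beside 33.9% of all tested probe sets. Progesterone array 2 was the lowest for 13 of 20 and for 5 of 5 sodium channel probe sets, beside 32.9% of all. Placebo array 1 was the lowest of its group for 11 of 20 and for 4 of 5 sodium channel probe sets, beside 37.3% of all. Estrogen array 3 and estrogen plus progesterone array 3 were likewise each the lowest of their group for 4 of 5 sodium channel probe sets, beside 30.3% and 29.1% of all. The part of cell makeup in these orders was not tested.

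**Figure D4:**
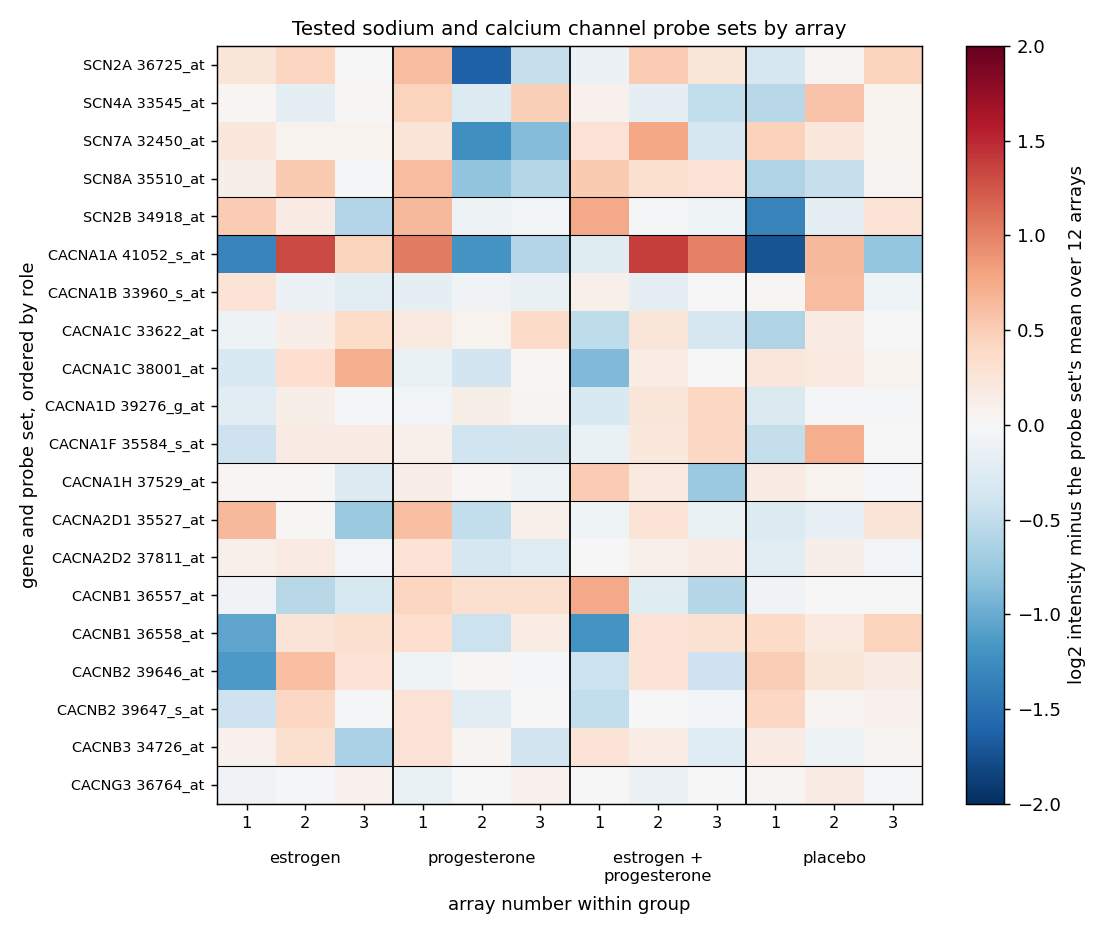
Log2 intensity of the 20 tested channel probe sets (rows, by role) on each of the 12 arrays (columns, from estrogen, progesterone and both hormones to placebo), drawn as the difference from the mean of that probe set over all arrays on a colour scale from −2 to 2. Progesterone array 2 is below progesterone array 1 in each sodium channel row, and estrogen array 1 and estrogen plus progesterone array 1 are low in the rows of CACNB2 and of 36558_at of CACNB1.

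Genes that anchor or modify sodium channels were measured by 26 probe sets, of which 17 for 10 genes were tested and 0 were called by limma in any comparison. With estrogen 9 read higher and 8 lower than placebo, with progesterone 5 and 12, and with both hormones 10 and 7, beside 49.2%, 50.4% and 49.4% of all tested probe sets that read higher. With progesterone the lowest p belonged to TNR, tenascin-R of the perineuronal matrix, on 41016_at, which read 20.0, 27.2 and 21.7 with progesterone, against 157, 47.2 and 125 with placebo. These did not overlap, and the change was −1.82 ± 0.51 (SE, limma adjusted p = 0.353). With estrogen the lowest p was that of NRCAM on 37286_at (0.28 ± 0.19, SE, limma adjusted p = 0.9999). For both hormones against placebo it was that of ANK3 on 36967_g_at (0.60 ± 0.36, SE, limma adjusted p = 0.999). As deposited, both overlapped placebo, as did the brighter ANK3 probe set, 36965_at, with both hormones. SPTBN1, a beta spectrin, had the lowest p on 39452_s_at for both hormones against estrogen (0.72), against progesterone (0.68, limma adjusted p = 0.540) and for the interaction (1.01). Its brighter tested probe set, 39556_at, read 281, 207 and 225 with both hormones. That overlapped estrogen (230, 241 and 268) and progesterone (187, 256 and 283).

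Partners of calcium channels and genes of calcium handling were measured by 59 probe sets, of which 44 for 31 genes were tested and 0 were called by limma. With estrogen 28 read higher and 16 lower than placebo, with progesterone 23 and 21, and with both hormones 24 and 20. Of all tested probe sets 49.2%, 50.4% and 49.4% read higher in the same order, and the difference from these shares was not tested. The lowest p against placebo belonged to STAC, an adaptor of L-type channels, with estrogen (0.74 ± 0.27), to RYR3, a ryanodine receptor, with progesterone (0.51, limma adjusted p = 0.528), and to SLC8A2, a sodium and calcium exchanger, with both hormones (0.43). ATP2B1, a calcium pump of the plasma membrane, read 53.3, 88.5 and 79.3 with both hormones on 37661_at, against 195, 144 and 146 with progesterone. These did not overlap, and the difference was −1.12 ± 0.28 (SE, limma adjusted p = 0.302). The brighter tested probe set of ATP2B1, 34188_at, did not share that fall. It read 160, 244 and 198 with both hormones, against 196, 156 and 172 with progesterone, and these overlapped. ATP2B2, another such pump, had the lowest p for both hormones against estrogen (1.24) and for the interaction (2.08, limma adjusted p = 0.914), on 41090_s_at. There it read 160, 43.8 and 140 with both hormones, against 30.4, 49.6 and 38.6 with estrogen, and these overlapped. Its highest and lowest values over the 12 arrays were those of the 2 arrays with high ribosomal signal. The changes without those arrays are not given here.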

How the data were processed

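For each of 12 arrays the authors deposited 1 linear intensity for every one of 12625 probe sets of a human array. From the values, the authors had scaled every array to a common trimmed mean. The software that summarised the probes is not given in the sources used here. Gene symbols came from the platform annotation, and 67 controls stayed out of the tests. Intensities became log2(intensity + 8.26), the offset being the pooled 10th percentile, and were quantile normalized because array log2 medians spanned 0.21. Fold changes on this scale understate those of dim probe sets. The lowest 40% of probe sets by mean were left out, which left 7535. Group means of all 12 arrays were fitted with limma 3.58.1 (lmFit and eBayes, 2-sided, R 4.3.3), with Benjamini-Hochberg adjustment over all tested probe sets at 0.05, for 6 contrasts and an F test. The same fit was tested on simulated data. With 3 arrays a group, the number of arrays limits precision, and each comparison with placebo shares the placebo arrays.

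Named with values were the 3 channel probe sets of smallest p in each contrast, the 5 of smallest p in the F test, the brightest of each role, and the other probe sets of those genes. Partner genes were named where they had the lowest p of their list. The members and lists were chosen with earlier results of these data known. Marker sums add intensities over the listed genes as deposited.

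Same-numbered arrays of different groups had correlations of their deviations between −0.22 and 0.41 over 18 pairs, and 5 exceeded 0.1. All 3 pairs exceeded it for estrogen with estrogen plus progesterone (0.13 to 0.41). The highest, 0.41, was that of the arrays numbered 1, which are those with high ribosomal signal. Deviations within a group add to 0, so these correlations are not independent and cannot show whether the numbers pair animals. The changes, SEs and adjusted p values given above came from fits without pairing, and a replicate block was run only as an alternative. No sequences or coordinates are given, since no sequence table was used here.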

Additional observations from a re-analysis of the deposited data

How the results depend on the processing

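The count of channel probe sets called by limma was 0 in each of the 7 comparisons and remained 0 under every alternative that was run, 160 comparisons and settings in all. These were other offsets, filters and normalizations, array weights, a trended and robust variance, fits of only the groups compared, the replicate number as a block, each of the 12 arrays left out in turn, and estrogen array 1 with estrogen plus progesterone array 1 left out together. With the replicate block 0 channel probe sets were called in each comparison. A block on the estrogen and estrogen plus progesterone arrays alone, added after seeing the data, also called 0 of 20 for both hormones against estrogen, with 1 at an unadjusted p under 0.05, beside 4.64% of all. Among the channel values of smallest p in each comparison 1 changed sign: CACNB1 on 36557_at, for both hormones against estrogen, was −0.082 without estrogen plus progesterone array 1, against 0.30 with all arrays, and leaving out single arrays gave values up to 0.58. Other channel values that changed sign included CACNA1A with progesterone (0.37, and −0.27 without progesterone array 1 or −0.19 without placebo array 1), SCN2B with estrogen (0.45, and −0.02 without placebo array 1) and CACNB2 on 39646_at with estrogen (−0.38, and 0.15 with estrogen array 1 and estrogen plus progesterone array 1 omitted). The cause was not tested. At an unadjusted p under 0.05, weighting the arrays by quality gave 6 of 20 channel probe sets for both hormones against progesterone, beside 13.4% of all, where the unweighted fit gave 1. SCN7A with progesterone against placebo ranged over the alternatives between −1.29 and −0.55, with limma adjusted p between 0.239 and 0.888. SCN8A with both hormones against placebo ranged between 0.55 and 0.90. Single arrays moved values of channel genes, including SCN7A, SCN8A, SCN2A, SCN2B, CACNA1A, CACNA1B, CACNA1C, CACNA1F, CACNB1 and CACNG1, by over 1.5 times, as given beside them. Signal near the offset limits the dimmest probe sets.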

Other observations

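The calcium pump ATP2B2, on the second of its probe sets (37053_at, chosen after its values were seen), read 777, 250.5 and 253 with progesterone, against 441, 468 and 521 with placebo. Progesterone array 1 lay above all placebo arrays, and arrays 2 and 3 below all of them, the same order of animals as for SCN8A, SCN2A and CACNA1A within the progesterone group.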
